A study of Mus musculus with 8 samples.

Results

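Heat shock proteins and their DnaJ partners were followed through kidney cortex of mice labelled Sav1+/+ or Sav1-/-. Members were taken by symbol, as every row of the deposited table named Hspa, Hspb, Hspd, Hspe, Hsph or Hsp90 with a number, or Dnaja, Dnajb or Dnajc with a number. This gave 72 genes of 21705, of which 65 averaged 10 or more across libraries and were tested, and 7 lay below that filter. One group was labelled Sav1+/+, abbreviated Ctrl, and had received vehicle (wild-type below, n = 4). The other was labelled Sav1-/-, abbreviated KS, and had received tamoxifen (Sav1-null below, n = 4). All 8 libraries came from cortex of mice of a mixed background strain. The labels do not name the Cre driver or the cells in which Sav1 was deleted, the age or sex of the mice, or whether each library was a separate animal. P-values therefore measure only how these 8 libraries vary, some of which may be technical.

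Heat shock proteins are molecular chaperones, which bind unfolded or aggregating proteins and help them fold, move across membranes or be degraded. HSP70 proteins work in cycles of ATP hydrolysis that J-domain (DnaJ) proteins start and nucleotide exchange factors end. HSP90 acts later on selected clients, the HSP60 and HSP10 pair forms the folding chamber of mitochondria, and small heat shock proteins hold aggregating proteins without using ATP. The transcription factor HSF1 induces part of the family on heat and other protein stress through heat shock elements, and in kidney the small and inducible members are known to respond to tubule injury.

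Promoter sequences are shown for members with the largest changes in each direction among those that hold a paired unit, part of such an element. Inducible chaperone genes are usually grouped by such elements. Among the stretches shown, only that of Hspe1 holds overlapping units. RefSeq promoters on GRCm38.p6 (250 bases before to 50 after a start) were available for 58 of the 72 members. The others, among them Hspa8, Hspa9, Hsp90aa1 and Hsp90ab1, could not be searched. Each available promoter was searched for the paired units GAANNTTC and TTCNNGAA, each of which reads the same on both strands. A promoter of 16 of the 58 (27.6%) held a unit, against 17% of 27025 genes with a promoter in the same table. Overlapping copies of both, sharing 3 bases, were found in 4 members (6.9%), namely Hspd1, Hspe1, Hsph1 and Dnajb6, and in 0.662% of all genes. Capitals mark the units. Stretches are 5′ to 3′ on the gene's strand.
Hspb1, chr5:135887759-135887858, plus strand: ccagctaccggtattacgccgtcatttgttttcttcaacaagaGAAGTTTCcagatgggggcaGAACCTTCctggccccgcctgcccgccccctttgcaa
Hspa1b, chr17:34959289-34959388, minus strand: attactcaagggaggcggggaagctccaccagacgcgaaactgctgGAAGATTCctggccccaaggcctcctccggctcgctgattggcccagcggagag
Hspe1, chr1:55088053-55088082, plus strand: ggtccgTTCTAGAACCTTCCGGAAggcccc
Dnaja1, chr4:40722333-40722362, plus strand: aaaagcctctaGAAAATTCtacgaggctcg
Dnaja4, distal unit, chr9:54699458-54699487, plus strand: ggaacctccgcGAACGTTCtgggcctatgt
Dnaja4, proximal unit, chr9:54699496-54699525, plus strand: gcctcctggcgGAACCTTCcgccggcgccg

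The Hspa1a stretch at chr17:34972207-34972306 had the same 100 bases as that of Hspa1b, and over 250 bases before the start the promoters of this gene pair matched at 247 (98.8%). The Hspe1 stretch holds 3 overlapping units and lies also in a promoter of Hspd1, which is read in the opposite direction. Of the 14 tested members with a unit, 7 were called higher in the Sav1-null group (Hspb1, Hspb8, Hspa1a, Hspa1b, Dnajb4, Dnajc10 and Dnajc27) and 7 lower (Hspd1, Hspe1, Hsph1, Dnaja1, Dnaja4, Dnajb6 and Hspb6). Of the 38 tested members with a promoter but no unit, 10 were called higher and 18 lower. Over all 13677 genes tested, 43.9% were called higher and 25.2% lower. A match of letters is a description of the window and does not show binding.

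Values are deposited normalized levels, scaled so that, among genes above 0, each library has its 75th percentile near 1000. Library totals corresponded to about 15700000 to 25000000 reads. Sav1 itself averaged 1350 ± 345 (SD, n = 4) in the wild-type group and 898 ± 127 in the Sav1-null group, and fell by 0.56 on the log2 scale (limma adjusted p = 0.022), so its transcript was lower and not lost. Genotype and treatment changed together. Xist averaged 12229 ± 2922 in the Sav1-null group and 0.247 ± 0.494 in the wild-type group, and the Y-linked gene Ddx3y was at 0 in every Sav1-null library, so a difference between males and females cannot be told apart from genotype and treatment either. The summed level of 10 proximal tubule markers ran from 325183 to 379172 in wild-type and from 34120 to 98745 in Sav1-null libraries, with 9 of 10 called lower. That of 6 leukocyte markers ran from 673 to 1085 and from 1948 to 2565, with 5 of 5 tested called higher. Cd79a of this list lay below the filter and went the other way, from 12.5 ± 4.29 to 4.85 ± 5.24. For 6 collecting duct principal cell markers the sum ran from 10220 to 13203 in wild-type and from 22937 to 39634 in Sav1-null libraries. Of this list, 5 were called higher and 0 lower. For 6 endothelium markers the sums were 2125 to 2658 and 995 to 2334, with 1 called lower and 0 higher. In such tissue RNA, fewer cells of a type and less RNA per cell cannot be told apart. Sav1-null replicate 4 had the lowest proximal tubule sum and stood apart on the second principal component, and it was the lowest or highest of its group in 52 of the 65 tested members (80.0%), against 20 to 31 for the other Sav1-null libraries.

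The family did not move as a block. Of the 65 tested members, 20 were called higher in the Sav1-null group (30.8%) and 31 lower (47.7%) by limma at an adjusted p under 0.05, while over all 13677 genes tested 43.9% were called higher and 25.2% lower. At least 2-fold changes were called up in 7 members (10.8%, against 23.1% of all genes) and down in 10 (15.4%, against 9.51%). Groups did not overlap in 48 members (73.8%), against 65.2% of all genes. For the class, list and marker counts as deposited, the shares of all genes are the same 43.9% higher and 25.2% lower. The median log2 fold change of the members was -0.22 and that of all genes 0.23. Median-of-ratios rescaling moved the latter by -0.22, quantile normalization by -0.26 and equal library totals by 0.38, and the members' counts followed, to 14 higher and 37 lower, 17 and 32, and 31 and 17. The share of higher among the called members was 39.2% as deposited and 27.5%, 34.7% and 64.6% in these scalings. For 27 members, 10 higher and 17 lower, the call held in all 18 alternatives in which they were tested. The 10 were Hspb1, Hspb2, Hspb8, Hspa1a, Hspa1b, Dnajb3, Dnajc5, Dnajc8, Dnajc9 and Dnajc10. The 17 were Hspa9, Hspd1, Hspe1, Dnaja1, Dnaja3, Dnaja4, Dnajb12, Dnajc2, Dnajc3, Dnajc6, Dnajc12, Dnajc13, Dnajc15, Dnajc19, Dnajc22, Dnajc28 and Dnajc30. Hspb2 and Dnajb3 were not tested under the filter of 50.

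**Figure D1:**
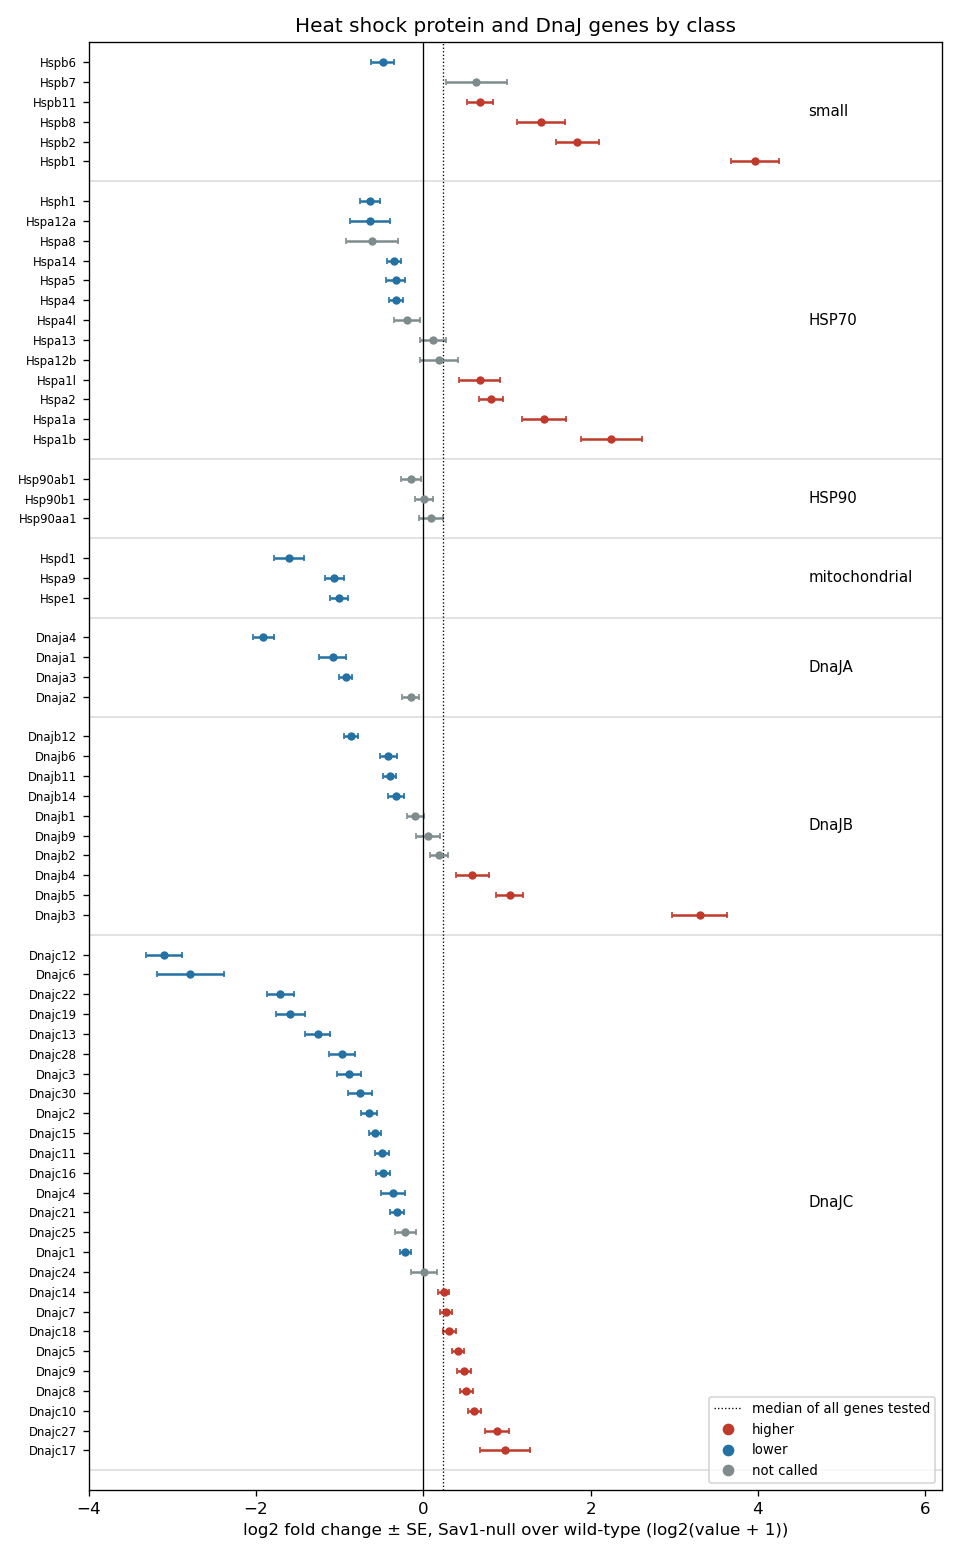
Log2 fold change (Sav1-null over wild-type, log2(value + 1) scale, x axis) of each tested member with its SE as a bar, ordered within class and coloured by limma call; the dotted line is the median of all genes tested. Small heat shock proteins other than Hspb6 and the Hspa1 pair lie to the right, the mitochondrial class and most DnaJA genes to the left, and the HSP90 class near 0.

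Small heat shock protein genes were mostly higher in the Sav1-null libraries. Of 6 tested, 4 rose, 1 fell and 1 was not called, against 43.9% called higher and 25.2% lower among all genes. The median log2 fold change of the class was 1.04. Hspb1, which encodes HSP27, a chaperone that also binds actin filaments, was at 47.2, 126, 97.6 and 59.8 in wild-type replicates 1 to 4 and at 1114, 1312, 1031 and 1441 in Sav1-null replicates 1 to 4. Every Sav1-null library exceeded every wild-type library by a wide margin. The rise was 15.6-fold (log2 fold change 3.96 ± 0.28, SE, limma adjusted p = 3.9e-06), the largest among the tested members, and lay between 3.73 and 4.20 when any 1 library was left out.

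Hspb8, which encodes the small chaperone that works with BAG3 in selective autophagy, was at 225, 550, 539 and 489 in wild-type and at 913, 1031, 1097 and 1567 in Sav1-null libraries. Wild-type replicate 1 was the lowest and Sav1-null replicate 4 the highest, and the groups did not overlap. Hspb8 rose 2.65-fold (log2 fold change 1.41 ± 0.29, limma adjusted p = 0.00185). Hspb2, a small heat shock protein gene known from muscle, was low in both groups, at 13.6, 11.7, 12.4 and 8.25 against 32.1, 44.0, 44.5 and 55.1. It rose 3.58-fold (limma adjusted p = 0.000168). Its exons share 252 bases with Cryab on the opposite strand in the GENCODE M21 annotation, and Cryab, the alpha B crystallin gene, rose from 478 ± 165 to 2991 ± 434 (log2 fold change 2.69). Whether the counting used strand is not given, so Hspb2 and Cryab reads cannot be told apart where they share bases. The 8 striated muscle markers summed to between 25.8 and 37.3 in the wild-type group and 31.6 and 41.6 in the Sav1-null group, with Myh4 at 0 in all.

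Hspb11, which encodes the intraflagellar transport protein IFT25, rose 1.60-fold from 109 ± 14.0 to 177 ± 27.5 (limma adjusted p = 0.00392), which quantile normalization reduced to a log2 fold change of 0.0091 and no call. Hspb6, which encodes HSP20 of smooth muscle and other tissues, was the 1 member of the class that fell, from 202, 166, 201 and 248 to 156, 144, 145.4 and 133 (1.40-fold, limma adjusted p = 0.0117). This call was lost with equal library totals (log2 fold change -0.10). The summed level of 6 smooth muscle and myofibroblast markers ran from 1840 to 2076 in wild-type and from 1380 to 2570 in Sav1-null libraries, with 2 of 6 called higher and 1 lower, and its part in the Hspb6 value was not tested. Hspb7 was at 13.1 ± 4.69 and 21.2 ± 8.66 and had no call as deposited (limma adjusted p = 0.144). With equal totals Hspb7 was called higher (log2 fold change 0.996).

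**Figure D2:**
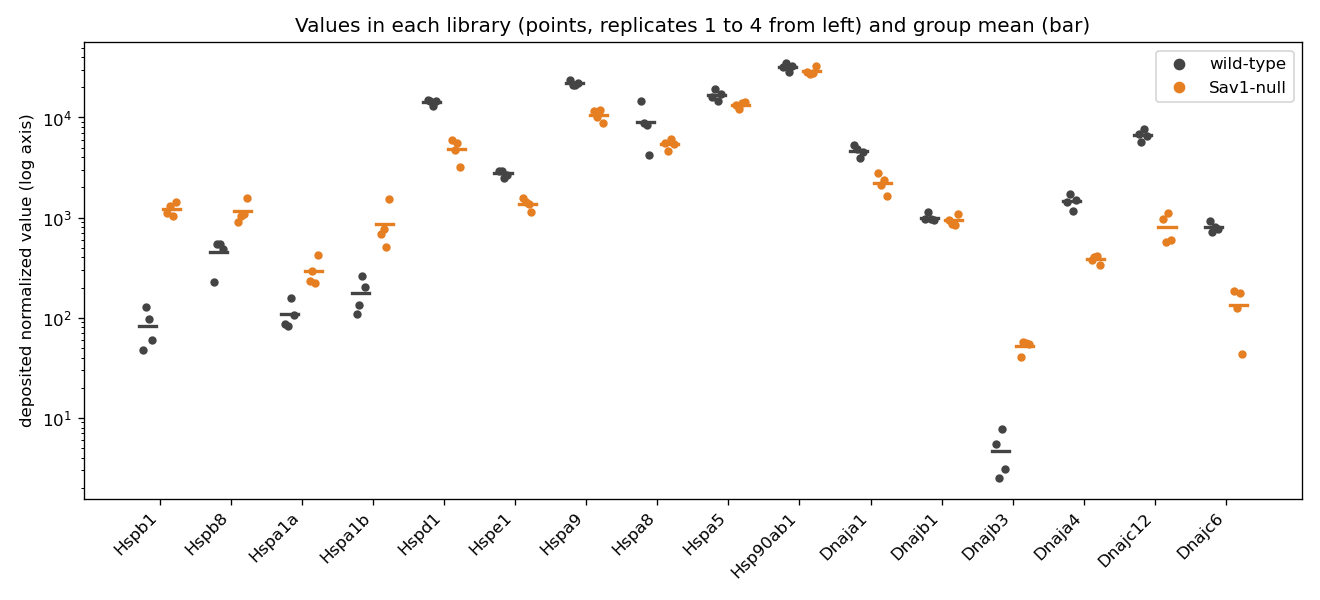
Deposited normalized value (log axis) of 16 members in each library, wild-type and Sav1-null side by side, with replicates 1 to 4 from left to right as points and the group mean as a bar. Hspb1, Hspb8, Hspa1a, Hspa1b and Dnajb3 are higher in all Sav1-null libraries, and Hspd1, Hspe1, Hspa9, Dnaja1, Dnaja4, Dnajc12 and Dnajc6 lower in all; Hspa8 spreads widely among wild-type libraries.

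The HSP70 class moved in both directions. The inducible pair Hspa1a and Hspa1b rose most. Hsph1, which is heat-inducible, and Hspa12a fell most, with a log2 fold change of -0.64 in both. Of 13 tested, 4 rose, 5 fell and 4 were not called, and the median was -0.19. Leaving out wild-type replicate 2 left 3 of the 5 falls called. Hspa1b, one of the pair of genes for inducible HSP70, was at 109, 133, 263 and 202 in wild-type and at 689, 761, 503 and 1521 in Sav1-null libraries. Sav1-null replicate 4 was by far the highest, and the groups did not overlap. Hspa1b rose 4.75-fold (log2 fold change 2.25 ± 0.36, limma adjusted p = 0.000434), and between 1.94 and 2.47 on the log2 scale when any 1 library was left out.

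Hspa1a, its near-identical neighbour, was at 86.1, 82.1, 157 and 106 against 235, 295, 224 and 424. Again the groups did not overlap and Sav1-null replicate 4 was the highest. Hspa1a rose 2.72-fold (log2 fold change 1.44 ± 0.26, limma adjusted p = 0.000798). RSEM divides reads shared by copies by an estimate, so the division of reads between these genes is uncertain. Their sum does not rest on that division, and it was 285 ± 103 in the wild-type group and 1163 ± 538 in the Sav1-null group, a ratio of 4.09. Exons of Hspa1a share 564 bases with Gm20481 on the opposite strand. The immediate early response list, 10 genes such as Fos and Egr1 that react to stress and to tissue handling, moved in the same direction. It summed to between 2175 and 5503 in wild-type and between 7429 and 11877 in Sav1-null libraries, with 7 of 9 tested called higher, 0 lower and the highest sum in Sav1-null replicate 4. The part of such a response in the Hspa1a and Hspa1b values was not tested.

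Hspa2, an HSP70 gene best known for its high level in testis, rose 1.75-fold from 84.4 ± 3.69 to 150 ± 24.4 (limma adjusted p = 0.000919), and had no call after quantile normalization. Hspa1l rose 1.60-fold (23.7 ± 5.75 to 38.1 ± 6.98, limma adjusted p = 0.0326). Its exons share 1778 bases with Gm10501 on the opposite strand. The Hspa1l call ended after median-of-ratios rescaling (0.46) and on leaving out wild-type replicate 1, 2 or 3 or Sav1-null replicate 2, 3 or 4 (log2 fold changes 0.54, 0.65, 0.71, 0.69, 0.64 and 0.58), and the value turned to -0.44 after quantile normalization.

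Hspa8, which encodes the constitutive cytosolic HSC70 that also uncoats clathrin vesicles, was at 14575, 8762, 8508 and 4239 in wild-type and at 5586, 4644, 6045 and 5401 in Sav1-null libraries. The 3.44-fold range among wild-type libraries was the widest of any tested member in that group. Hspa8 was not called (log2 fold change -0.61 ± 0.31, limma adjusted p = 0.105), and without wild-type replicate 4, the lowest, the log2 fold change was -0.93 with a limma adjusted p of 0.00345. It was also called lower after median-of-ratios rescaling (-0.84). Hspa8 is known to have processed pseudogenes that can share its reads, so its value is uncertain.

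Hsph1, which encodes HSP110, a nucleotide exchange factor of HSP70, was at 3204, 3823, 2708 and 3377 against 2413, 1931, 2141 and 1897. It fell 1.56-fold (limma adjusted p = 0.00104) with no overlap between the groups. The overlapping units of Hsph1 lie after the start, at 36 and 41 bases from start 1 and at 15 and 20 from start 2. Their part in its value was not tested. The Hsph1 fall was not called with equal library totals (log2 fold change -0.26). Hspa14, an HSP70 gene of the ribosome-associated complex, fell 1.27-fold (774 ± 43.5 to 609 ± 51.2, limma adjusted p = 0.00519), and turned to 0.036 on the log2 scale with equal totals. Hspa12a, a distant HSP70 relative, fell 1.56-fold (limma adjusted p = 0.0355), from 431 ± 35.4 to 342, 324, 333 and 156. Sav1-null replicate 4 lay far below the others, and without it the log2 fold change was -0.37 in place of -0.64, still called. The Hspa12a call ended with equal totals (-0.26) and on leaving out any 1 wild-type library (log2 fold changes -0.59, -0.64, -0.64 and -0.69). Hspa4, another HSP110 gene, fell 1.26-fold (4385 ± 353 to 3486 ± 230, limma adjusted p = 0.00641), a call that ended after quantile normalization and with equal totals. Hspa4l and Hspa12b were not called as deposited (limma adjusted p = 0.304 and 0.487). Hspa4l was called lower after median-of-ratios rescaling (-0.42), and Hspa12b lower after quantile normalization (-0.88) and higher with equal totals (0.56).

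The HSP90 class was close to level between the groups. None of its 3 genes was called as deposited, with log2 fold changes from -0.14 to 0.10. Hsp90ab1, the constitutive cytosolic form, was at 31806, 34914, 28798 and 32945 in wild-type and at 28332, 27242, 27755 and 33051 in Sav1-null libraries (limma adjusted p = 0.317). Hsp90aa1, the inducible cytosolic form, was at 3415 ± 696 and 3589 ± 132 (limma adjusted p = 0.564). The groups overlapped in both genes. Hsp90b1, which encodes GRP94 of the endoplasmic reticulum, was at 13370 ± 1621 and 13372 ± 514 (limma adjusted p = 0.955). The scaling decided these calls. After quantile normalization all 3 were called higher (0.74, 0.40 and 0.74 for Hsp90ab1, Hsp90aa1 and Hsp90b1), and with equal totals Hsp90aa1 and Hsp90b1 were (0.48 and 0.39). After median-of-ratios rescaling Hsp90ab1 was called lower (-0.37).

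Mitochondrial chaperones fell together. All 3 genes of the class fell, and of 10 members listed as mitochondrial across classes 10 were called lower and 0 higher, with a median log2 fold change of -0.95. These 10, against 25.2% of all genes called lower, include Hspd1, Hspe1 and Hspa9. The count was 10 after median-of-ratios rescaling and quantile normalization and 8 with equal totals. Hspd1, which encodes HSP60, the ring of the mitochondrial folding chamber, was at 15107, 14667, 13171 and 14752 in wild-type and at 5935, 4717, 5626 and 3223 in Sav1-null libraries. Every wild-type library lay above every Sav1-null one, and Sav1-null replicate 4 was the lowest. Hspd1 fell 3.03-fold (log2 fold change -1.60 ± 0.18, limma adjusted p = 4.18e-05).

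Hspe1, which encodes HSP10, the lid of that chamber, was at 2918, 2912, 2511 and 2693 against 1565, 1431, 1380 and 1130. The fall was 2.01-fold (limma adjusted p = 3.08e-05) and the groups did not overlap. Hspa9, which encodes mortalin, the mitochondrial HSP70 that pulls proteins through the inner membrane, went from 23459, 21302, 21334 and 22174 to 11669, 10148, 11876 and 8841. It fell 2.09-fold (log2 fold change -1.06 ± 0.12, limma adjusted p = 3.72e-05). The lowest value of all 3 genes was that of Sav1-null replicate 4, which also had the lowest sum of proximal tubule markers. How much of the fall goes with fewer or less active proximal tubule cells was not tested.

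Co-chaperones of mortalin and other DnaJ genes listed as mitochondrial were lower too. Dnajc19, which encodes the TIM14 subunit of the import motor, was at 553, 523, 726 and 685 in wild-type and at 236, 223, 222 and 148 in Sav1-null libraries, and fell 3.01-fold (limma adjusted p = 3.72e-05). Its exons share 178 bases with Fxr1 on the opposite strand. Dnajc15, which encodes a related protein of the import machinery, fell 1.49-fold (1072 ± 47.3 to 717 ± 39.9, limma adjusted p = 8.76e-05). Dnaja3, which encodes TID1, the DnaJA partner of mortalin in the matrix, was at 4083, 3860, 3905 and 4246 against 2305, 1978, 2263 and 1926 and fell 1.90-fold (limma adjusted p = 1.12e-05). The groups did not overlap in any of these genes. Dnajc28 fell 1.96-fold, Dnajc30 1.69-fold and Dnajc11, which encodes a protein of the cristae-organising complex, 1.41-fold (limma adjusted p = 0.000376, 0.00117 and 0.00047). The Dnajc11 fall was not called with equal totals. Dnajc30 shares 436 exon bases with Bud23 on the opposite strand. Dnajc4 fell 1.29-fold (limma adjusted p = 0.0455), but its call was lost when any 1 library other than Sav1-null replicate 4 was left out (log2 fold changes from -0.40 to -0.30), and its groups overlapped because Sav1-null replicate 4 was at 344 against 223 to 239 in the other 3.

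Chaperones of the endoplasmic reticulum changed less and in both directions. Of 10 members listed, 1 rose, 6 fell and 3 were not called, against 43.9% called higher and 25.2% lower among all genes. The median of the list was -0.27, and with equal totals 5 were called higher and 2 lower. Hspa5, which encodes BiP, the HSP70 of this compartment and a marker of the unfolded protein response, was at 16167, 19471, 14589 and 17330 in wild-type and at 13181, 12193, 13911 and 14231 in Sav1-null libraries. Hspa5 fell 1.26-fold (limma adjusted p = 0.0253). That call ended on leaving out wild-type replicate 2 or 4 or Sav1-null replicate 1 or 2 (log2 fold changes -0.26, -0.32, -0.32 and -0.29) and with the replicate block (limma adjusted p = 0.0645), and after quantile normalization Hspa5 was called higher (0.44). Dnajc3, which encodes P58IPK, an inhibitor of the stress kinase PERK that also acts as a co-chaperone of BiP, was at 4696, 5087, 4229 and 4510 against 2794, 2413, 3025 and 1892. It fell 1.85-fold (log2 fold change -0.89 ± 0.14, limma adjusted p = 0.000374), with no overlap.

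Dnajc10, which encodes ERdj5, a disulfide reductase in the degradation of misfolded proteins, was the 1 member of this list that rose. Its values were 1348, 1436, 1282 and 1258 in wild-type and 2187, 2047, 2089 and 1815 in Sav1-null libraries, and every Sav1-null library lay above every wild-type one. The rise was 1.53-fold (log2 fold change 0.61 ± 0.08, limma adjusted p = 0.000121). Dnajb12, a membrane-anchored J-domain gene, fell 1.82-fold (1487 ± 124 to 817 ± 50.1, limma adjusted p = 2.02e-05). Dnajb11, which encodes the BiP partner ERdj3, fell 1.32-fold (limma adjusted p = 0.00121) and Dnajb14, a relative of Dnajb12, 1.25-fold (limma adjusted p = 0.0154). Dnajc1 fell 1.16-fold (limma adjusted p = 0.0186). The calls of Dnajb11 and Dnajb14 were lost with equal totals, Dnajc1 was called higher there (log2 fold change 0.17), and leaving out 1 library ended the calls of Dnajb14 (wild-type replicate 1, -0.28) and Dnajc1 (wild-type replicate 4, -0.20). Dnajb9, which encodes the stress-induced ERdj4, was at 977, 1034, 948 and 1032 against 1181, 1051, 1246 and 756 and was not called (limma adjusted p = 0.723), nor was Hspa13 (748 ± 81.3 and 822 ± 168, limma adjusted p = 0.527). Both were called higher without Sav1-null replicate 4 (log2 fold changes 0.21 and 0.27) and with equal totals (0.44 and 0.50).

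**Figure D3:**
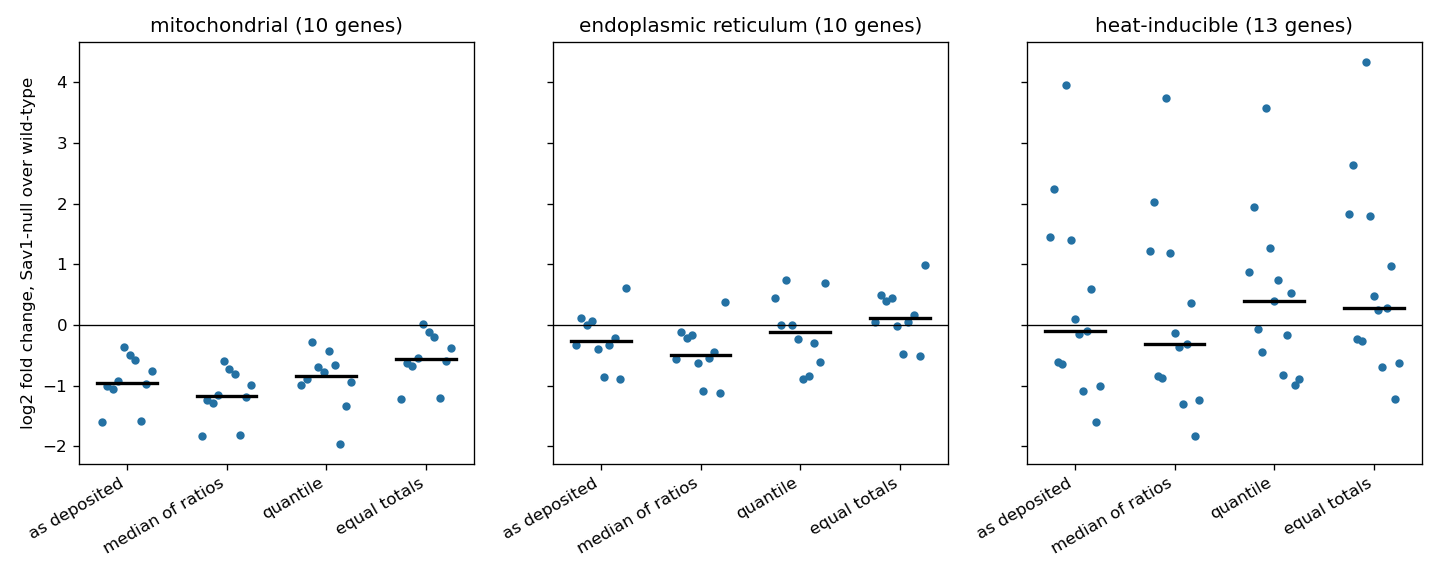
Log2 fold change (Sav1-null over wild-type) of the members listed as mitochondrial, endoplasmic reticulum and heat-inducible under 4 scalings, each point a gene and each bar the median of the list. The mitochondrial median stays below 0, from -1.17 to -0.57, while that of the endoplasmic reticulum runs from -0.49 to 0.11 and that of the heat-inducible list from -0.32 to 0.40.

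DnaJA genes were lower or level. Of 4 tested, 3 fell and 0 rose. Dnaja4, a cytosolic co-chaperone gene, was at 1430, 1706, 1176 and 1515 in wild-type and at 379, 406, 416 and 339 in Sav1-null libraries. It fell 3.76-fold (log2 fold change -1.91 ± 0.12, limma adjusted p = 2.24e-06), with a large gap between the groups. Dnaja1, a main cytosolic partner of HSC70, was at 5307, 4873, 3980 and 4504 against 2771, 2116, 2369 and 1648 and fell 2.12-fold (limma adjusted p = 0.000214). The exons of Dnaja4 share 1581 bases with Wdr61 and those of Dnaja1 608 bases with Smu1, in each case on the opposite strand. Dnaja2 was at 4061 ± 224 and 3676 ± 463 and was not called as deposited (limma adjusted p = 0.212). It was called lower after median-of-ratios rescaling (-0.38) and higher with equal totals (0.23).

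Among the DnaJB genes 3 of 10 tested rose and 4 fell. Dnajb3, a J-domain gene known from testis, went from 5.44, 2.51, 7.66 and 3.09 to 40.6, 56.7, 55.3 and 55.1, or from about 20 reads in all wild-type libraries together to about 236 in the Sav1-null ones. It rose 9.86-fold (log2 fold change 3.30 ± 0.33, limma adjusted p = 2.46e-05). The sperm genes Prm1, Prm2, Tnp1 and Odf1 were at 0 in all 8 libraries. Dnajb5 rose 2.04-fold from 105 ± 13.4 to 216 ± 33.5 (limma adjusted p = 0.000291), a call lost after quantile normalization.

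Dnajb1, the main heat-inducible HSP40, did not follow Hspa1a and Hspa1b. Its values were 960, 1127, 964 and 955 in wild-type and 946, 863, 849 and 1097 in Sav1-null libraries, with overlapping groups (limma adjusted p = 0.415). It was called lower after median-of-ratios rescaling and higher with equal totals (log2 fold change 0.29). Dnajb4, another heat-inducible HSP40 gene, was at 747, 956, 742 and 692 against 1459, 1257, 1345 and 758. Dnajb4 rose by 0.59 ± 0.20 on the log2 scale (limma adjusted p = 0.0248), with Sav1-null replicate 4 inside the wild-type range. This call ended after median-of-ratios rescaling (0.36) and on leaving out wild-type replicate 1, 3 or 4 or Sav1-null replicate 1, 2 or 3 (log2 fold changes from 0.48 to 0.57). Dnajb6, which encodes a suppressor of polyglutamine aggregation, fell 1.34-fold (428 ± 33.1 to 320 ± 26.9, limma adjusted p = 0.00433), a call lost with equal totals. Dnajb2, a neuronal J-domain gene, was at 876 ± 22.8 and 1006 ± 165 and had no call as deposited (limma adjusted p = 0.15). With equal totals Dnajb2 was called higher (0.57). Of the 13 members listed as heat-inducible, 5 rose (Hspb1, Hspb8, Hspa1a, Hspa1b and Dnajb4), 4 fell (Hspd1, Hspe1, Hsph1 and Dnaja1) and 4 were not called. Those not called were Dnajb1, Hsp90aa1, Hsp90ab1 and Hspa8. Of these, Hspa8 and Hsp90ab1 are described above as constitutive, so the list is not limited to inducible genes. Over all genes, 43.9% were called higher and 25.2% lower. Median-of-ratios rescaling gave 4 higher and 7 lower in this list, quantile normalization 7 and 4, and equal totals 7 and 3.

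The DnaJC class, the most diverse, held the largest falls of the family. Of 26 tested, 9 rose, 15 fell and 2 were not called, against 43.9% called higher and 25.2% lower among all genes. After median-of-ratios rescaling 5 of the class were called higher. Dnajc12, a co-chaperone gene of the aromatic amino acid hydroxylases, was at 6808, 5679, 7664 and 6557 in wild-type and at 970, 571, 1099 and 592 in Sav1-null libraries. The highest Sav1-null library lay far below the lowest wild-type one. Dnajc12 fell 8.56-fold (log2 fold change -3.10 ± 0.22, limma adjusted p = 3.35e-06), and between -3.27 and -2.95 on the log2 scale when any 1 library was left out.

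Dnajc6, which encodes auxilin, the J-domain protein that brings HSC70 to clathrin coats, was at 934, 720, 813 and 761 in wild-type and at 186, 125, 176 and 43.3 in Sav1-null libraries. It fell 6.89-fold (log2 fold change -2.79 ± 0.40, limma adjusted p = 0.000213), and without Sav1-null replicate 4, the lowest, the log2 fold change was -2.32. Dnajc22 was at 2956, 2824, 2595 and 2724 against 1024, 808, 1048 and 595 and fell 3.27-fold (limma adjusted p = 1.97e-05). Dnajc13, which encodes the endosomal protein RME-8, fell 2.40-fold from 4986 ± 296 to 2110 ± 435 (limma adjusted p = 5.55e-05). None of these genes had overlapping groups. Gak, which encodes the other auxilin, is named differently and was at 2684 ± 108 and 2448 ± 107, with no call as deposited (limma adjusted p = 0.10).

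The rises in this class were smaller. Dnajc17, linked to splicing, rose 1.97-fold (57.4 ± 20.5 to 113 ± 37.4, limma adjusted p = 0.0166) with overlapping groups, and had no call after quantile normalization or median-of-ratios rescaling. Dnajc27, a gene for a Rab-like GTPase with a J domain, rose 1.84-fold (72.8 ± 9.51 to 134 ± 10.1, limma adjusted p = 0.000463), which was not called after quantile normalization. Dnajc8, a spliceosome component gene, was at 747, 820, 763 and 720 against 1004, 1159, 1055 and 1140 and rose 1.43-fold (limma adjusted p = 0.000292). Dnajc9, which encodes a histone chaperone, rose 1.40-fold and Dnajc5, which encodes the vesicle protein CSP-alpha, 1.33-fold (limma adjusted p = 0.000649 and 0.00066). Dnajc2, which encodes the ribosome-bound partner of Hspa14, fell 1.57-fold (limma adjusted p = 0.000232). The other DnaJC genes moved by less than 0.5 on the log2 scale. Dnajc7, Dnajc14 and Dnajc18 rose (log2 fold changes 0.28, 0.24 and 0.31), and all of them had no call after median-of-ratios rescaling. Exons of Dnajc14 share 1114 bases with Ormdl2 on the opposite strand. Dnajc16 and Dnajc21 fell (-0.48 and -0.32) and had no call with equal totals, and Dnajc24 and Dnajc25 were not called as deposited (limma adjusted p = 0.958 and 0.145). Dnajc25 was called lower after median-of-ratios rescaling (-0.44) and quantile normalization (-0.77), and Dnajc24 lower after quantile normalization (-0.68) and higher with equal totals (0.39).

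Levels can be compared between genes only per length. Divided by the median length of their coding transcripts in GENCODE M21, the highest members in wild-type cortex were Hsp90ab1 (12744 per kb), Hspa9 (7238), Hspd1 (5953), Hspa5 (5375) and Hsp90b1 (4733). In Sav1-null cortex Hsp90ab1 was again the highest at 11546 per kb, followed by Hsp90b1 (4733), Hspa5 (4257), Hspa9 (3487) and Hspa8 (2456). Hspd1 was then at 2012. Hspb1 moved from 90.3 to 1336 per kb, above Hsph1 (657) and Dnaja1 (495). Hspa1b stayed lower, at 63.1 and 309.8 per kb.

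**Figure D4:**
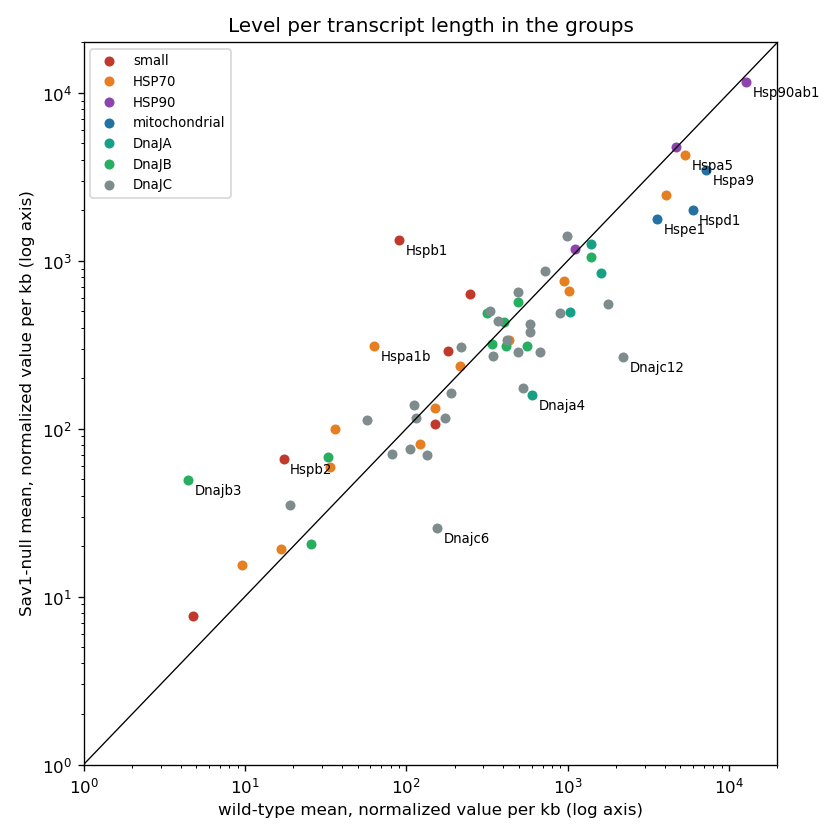
Mean normalized value per kb of transcript in wild-type (x axis) and Sav1-null (y axis) libraries for the 65 tested members, both on log axes and coloured by class, with the diagonal marking equal levels. Hsp90ab1 lies at the top near the diagonal, the mitochondrial genes below it, and Hspb1, Hspa1b, Hspb2 and Dnajb3 above it.

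Spread among libraries differed between members. The median coefficient of variation was 8.2% in the wild-type and 12.6% in the Sav1-null group. Dnajb3 (50.4%), Hspa8 (47.0%), Hspb1 (43.7%) and Hspa1b (39.5%) varied most among wild-type libraries, and Hspa1b (51.6%), Dnajc6 (49.2%) and Hspb7 (40.9%) among Sav1-null libraries. In the wild-type libraries the injury transcript Havcr1 was at 1099 and 665 in replicates 2 and 3 and at 23.6 and 15.5 in replicates 1 and 4, and Hspb1 was highest in the same pair of libraries. Leaving out wild-type replicates 2 and 3 together gave 15 members higher and 26 lower, and the Hspb1 log2 fold change was then 4.49.

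Members below the filter were nearly silent. Dnajb8, Dnajc5g and Hspb3 were listed at 0 in all libraries, where 3 reads would give a value of 2.34 to 3.09. Dnajc5b had about 1 read in all, and Dnajb7 about 5, all in Sav1-null libraries. Dnajb13, a gene of sperm and cilia, had about 3 reads in the wild-type and 27 in the Sav1-null libraries, and its exons share 305 bases with Ucp2 on the opposite strand. Hspb9, a testis gene, had about 30 and 7.

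Other genes of the chaperone network, listed by function, moved in both directions. Of 50 tested partners, 9 were called higher and 17 lower, against 43.9% and 25.2% of all genes, with a median of -0.11. These partner counts were 26 and 8 with equal totals. The heat shock factor genes Hsf1 (499 ± 54.7 and 542 ± 69.0) and Hsf2 (289 ± 38.6 and 268 ± 34.0) were not called as deposited (limma adjusted p = 0.384 and 0.477). Hsf1 was called higher with equal totals (0.50) and Hsf2 lower after median-of-ratios rescaling (-0.34) and quantile normalization (-0.52). Of 30 co-chaperones of HSP70 and HSP90, 7 rose and 8 fell. Bag3, the partner of Hspb8, rose from 622 ± 32.2 to 891 ± 88.6 (log2 fold change 0.51), and Bag2 from 466 ± 38.6 to 851 ± 86.8 (0.87). Grpel1, the nucleotide exchange factor of mortalin, fell from 3121 ± 156 to 1567 ± 83.3 (-0.99), and Sil1, that of BiP, from 1394 ± 62.7 to 689 ± 60.7 (-1.02). Among other chaperones, Trap1, the mitochondrial HSP90, fell from 8329 ± 355 to 3439 ± 496 (-1.29), and the mitochondrial proteases and unfoldases Lonp1, Clpx and Clpb fell by 1.12, 1.74 and 0.95 on the log2 scale. Of the 8 cytosolic chaperonin genes, Tcp1 and Cct2 to Cct8, 3 fell (Tcp1, Cct6a and Cct8, log2 fold changes from -0.35 to -0.20), and 0 rose, while after quantile normalization and with equal totals none of these 3 falls was called and Tcp1 (0.18 in both), Cct2, Cct3, Cct4, Cct5 and Cct7 were called higher. Unlike Cryab, the alpha A crystallin gene Cryaa fell, from 84.5 ± 52.1 to 1.2 ± 0.99 (-5.20), the largest change among the tested partners. Bag2, Bag3, Grpel1, Sil1, Trap1, Lonp1, Clpx, Clpb, Cryaa and Cryab had the same call in all 4 scalings.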

How the data were processed

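RNA was extracted with a silica column kit and sequenced as stranded mRNA libraries, per the labels' protocols. The authors deposited 1 table of normalized expression values, a signal and not counts. Per the submitters' processing notes RSEM, SAMtools and Picard 1.64 were used with build mm9. For aligner, annotation and strand setting, the sources used here say nothing. The size of 1 read in a library was taken as its most frequent value above 0.

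Genes with a mean of at least 10 were tested on log2(value + 1) with limma 3.58.1 in R 4.3.3 (intensity trend, 6 residual degrees of freedom), adjusted by Benjamini-Hochberg over all tested genes and called at 0.05. The test was checked on simulated data. Fold changes are antilogs on that scale and understate low genes. Lengths and exon overlaps came from GENCODE M21 (GRCm38) and promoters from RefSeq. Exons of 21 members share bases with a gene on the opposite strand, and only some of these overlaps are named above. Named members were up to 4 called in each direction per class and 3 functional lists. All other members and the partners named were added after their values were seen. Members and lists were chosen with earlier results of these data known. Alternatives were pseudocounts of 0.5 and 10, filters of 0 and 50, 3 other scalings, no trend, a replicate block and libraries left out.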

Additional observations from a re-analysis of the deposited data

Results flagged for a closer look

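In 8 of 130 groups of 4 libraries (65 members in each group), 1 library lay apart from the other 3 by more than Dixon's 95% critical value for the gap over the range. Chance flags about 1 in 20 groups. Sav1-null replicate 4 was the library in 6 of them. It was high for Dnajb2 (1252 against 897 to 943), Dnajc30 (542 against 452 to 462) and Dnajc4 (344 against 223 to 239). It was low for Dnajc19 (148 against 222 to 236), Hspa12a (157 against 324 to 342) and Hspb11 (136 against 184 to 194). Dnajb3 was low in Sav1-null replicate 1 (40.6 against 55.1 to 56.7), and Dnajb1 was high in wild-type replicate 2 (1127 against 955 to 964).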

How the results depend on the processing

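Pseudocounts of 0.5 and 10 changed no member's call, and over all alternatives 1047 of 1165 single-member values kept direction and call, 61 lost and 20 gained a call in the same direction and 37 turned sign. Equal library totals moved most counts: 31 members higher and 17 lower, 1946 genes lower over the whole table, partners 26 higher and 8 lower, the small class 0 lower, HSP70 0 lower, HSP90 2 higher, DnaJA 1 higher, DnaJB 6 higher and 1 lower. It turned Dnaja2 (0.23), Dnajb1 (0.29), Dnajb14 (0.056), Dnajc1 (0.17), Dnajc21 (0.068), Dnajc4 (0.016), Hspa14 (0.036), Hspa4 (0.054), Hspa5 (0.053), Hsp90ab1 (0.24), Hspa4l (0.19) and Dnajc25 (0.17). Quantile normalization gave 16 partners and 3 HSP90 genes higher and turned Dnajc24 (-0.68), Hsp90ab1 (0.74), Hspa12b (-0.88), Hspa1l (-0.44), Hspa4 (0.0046), Hspa5 (0.44), Dnaja2 (0.18), Hspa13 (-0.0076) and Hspb7 (-0.67). Median-of-ratios rescaling gave 28 partners lower, 1 HSP90 gene lower and 5 DnaJC genes higher, and turned Dnajb2 (-0.038), Dnajb9 (-0.16), Dnajc24 (-0.21), Hsp90aa1 (-0.13), Hsp90b1 (-0.22), Hspa12b (-0.034) and Hspa13 (-0.11). Leaving out 1 library gave values on both sides of 0 for Dnajb9 (-0.026 to 0.21), Dnajc24 (-0.12 to 0.073), Hsp90aa1 (-0.051 to 0.20) and Hsp90b1 (-0.063 to 0.079), and dropping wild-type replicates 2 and 3 did so for Hspa12b (-0.0062). Without a filter 2 small genes were lower. The HSP70 genes called lower numbered 3 to 5 when 1 library was left out (3 when it was wild-type replicate 2) and 2 when wild-type replicates 2 and 3 were dropped. The cause of these changes was not tested. With the replicate block 20 members were higher and 30 lower. Deviations of same-numbered libraries correlated at 0.144, 0.076, -0.169 and 0.135, so the numbers were not taken as pairs, and not every library correlated best with its own number (wild-type replicate 1 with Sav1-null replicate 3, 0.245). At the depth used, 3 reads limit what can be seen of the 7 members below the filter.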
